A study of Drosophila melanogaster with 8 samples.

Results

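The regions described here lie on the sequences of the Drosophila genome assembly that are neither 1 of the 6 arms (X, 2L, 2R, 3L, 3R and 4) nor the Y chromosome. They were chosen by name alone: every peak on any other sequence was taken, and peaks of different libraries that shared at least 1 bp were merged. This gave 1381 regions on 1033 sequences, of 10879 merged regions in all, with 9086 on the arms and 412 on the Y chromosome. By name they fall into 659 regions on 464 unplaced scaffolds, 505 on 437 scaffolds assigned to X without a position, and 199 on 130 scaffolds assigned to Y without a position. A further 15 lay on the scaffold Un_CP007120v1, known from the assembly as the one that holds the ribosomal DNA array, and 3 on the mitochondrial genome. The class called unplaced thus holds 659 of the regions. Un_CP007120v1 also has an unplaced name but is kept apart for its ribosomal DNA. The remaining regions have a chromosome or an organelle in their name.

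CUT&RUN was used, an assay that brings a nuclease to an antibody's target on chromatin so that only the DNA cut out there is sequenced, on the wing imaginal disc, the larval tissue that forms the adult wing. An antibody against GFP was used on larvae whose Zelda carried GFP at its own locus and on w1118 larvae, a wild-type strain without any GFP. The groups were Zelda-GFP damaged, wild-type damaged, Zelda-GFP undamaged and wild-type undamaged discs, with damaged discs taken 2 days after damage, undamaged discs from normal development, and 2 libraries in each of the 4 groups. The labels used here do not give the stage or sex of the larvae, how the damage was made, how many discs were pooled, or whether replicates came from separate larvae, so the p-values below measure only the spread between these libraries.

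Zelda is a pioneer transcription factor, one that can bind its motif in closed chromatin, and is best known for opening the genome of the early embryo. Most unplaced, X-assigned and Y-assigned scaffolds are short pieces of repeated sequence, largely from heterochromatin, that could not be joined to an arm. The ribosomal DNA holds tandem copies of the unit transcribed into 18S, 5.8S, 2S and 28S ribosomal RNA, on the X and the Y chromosome. The mitochondrial genome is present in many copies per cell and carries no histones. Repeated and high-copy sequence often gives high read coverage in chromatin assays whatever the antibody. The untagged w1118 discs therefore matter for every region here: a GFP antibody has no tagged protein to bind there. No genome sequence was used, so no region's sequence is shown.

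The authors deposited 1 peak list per library, made by MACS2 per the submitters' processing notes, with 2663 to 4946 peaks per list. Each peak has a fold enrichment, the pileup of fragments at its summit over the local expected coverage, and the fold and p-value together fix both of these. The lowest expected coverage of a library, 32.6 to 52.3 fragments per base, is called its background here and stands in for depth, since the lists give no read totals. Signal is given below as the summit pileup in multiples of that background, a value that corrects for depth and, unlike the fold, is not lowered where the surrounding sequence is also covered. The lists do not say how reads that match several places were treated. Scaffolds with near-identical sequence can share reads, so regions on different scaffolds are not independent of each other.

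Scaffold peaks were few compared with the arms but stood much higher. The Zelda-GFP damaged lists held 809 and 797 scaffold peaks and the wild-type damaged lists 854 and 807. The Zelda-GFP undamaged lists held 1034 and 861 and the wild-type undamaged lists 874 and 1295. These were 17.7% and 16.6% of all peaks in Zelda-GFP damaged discs, 26.1% and 17.5% in wild-type damaged discs, 24.4% and 32.3% in Zelda-GFP undamaged discs, and 32.3% and 26.2% in wild-type undamaged discs. Scaffolds took a larger part of the strong peaks: 50.5% and 47.6% of peaks with a fold of at least 3 lay on them in Zelda-GFP damaged discs, and 72.7% to 76.9% in the other 6 libraries. The number of such scaffold peaks was 590 and 589 in Zelda-GFP damaged and 581 and 557 in wild-type damaged discs. It was higher in every undamaged list, at 614 and 642 in Zelda-GFP and 646 and 848 in wild-type discs. Over all sequences the Zelda-GFP damaged lists held more peaks of that fold, at 1168 and 1237 against 742 to 1109 in the other 6.

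**Figure D1:**
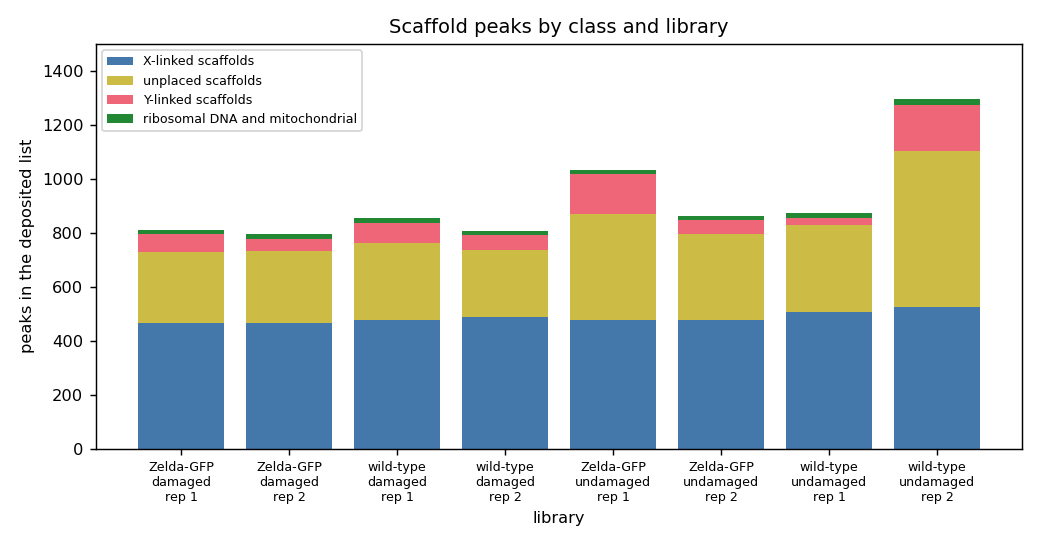
Number of scaffold peaks (y axis) in each of the 8 deposited lists (x axis), stacked by class of sequence. The X-linked part varies little between libraries, from 464 to 525 peaks, while the unplaced part runs from 250 to 580 and the Y-linked part from 25 to 167.

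The median scaffold peak reached 5.31 ± 0.882 times background and the median arm peak 2.21 ± 0.212 times (SD, n = 8 libraries each). It was 923.5 ± 43.1 bp wide on scaffolds and 508.75 ± 87.0 bp on arms. A fold of at least 3 was reached by 69.7% ± 5.30 of scaffold peaks and 9.53% ± 4.49 of arm peaks. In each of these 3 measures the scaffolds were higher in 8 of 8 libraries, with an exact two-sided sign-flip permutation p of 0.0078, the smallest that 8 libraries allow, and 0.0104 after Benjamini-Hochberg adjustment over 4 tests. The fourth test compared replicate lists by their Jaccard index, the regions called in both over the regions called in either. It averaged 0.766 ± 0.125 on scaffolds and 0.405 ± 0.105 on arms over the 4 replicate pairs and was higher on scaffolds in 4 of 4, with an exact p of 0.125, the smallest that 4 pairs allow.

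The classes differed in how often the same region came back. A region counts as called in a library if it holds a peak of that library. On X-linked scaffolds 412 of 505 regions (81.6%, 95% Wilson interval 78.0% to 84.7%, covering counting error only) were called in all 8 libraries, wild-type libraries included. This held for 160 of 659 unplaced regions (24.3%), 18 of 199 Y-linked regions (9.05%), 9 of 15 ribosomal DNA regions and 3 of 3 mitochondrial regions. Over all scaffolds it was 602 regions, or 43.6%, beside 11.3% of all 10879 regions and 6.45% of arm regions.

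**Figure D2:**
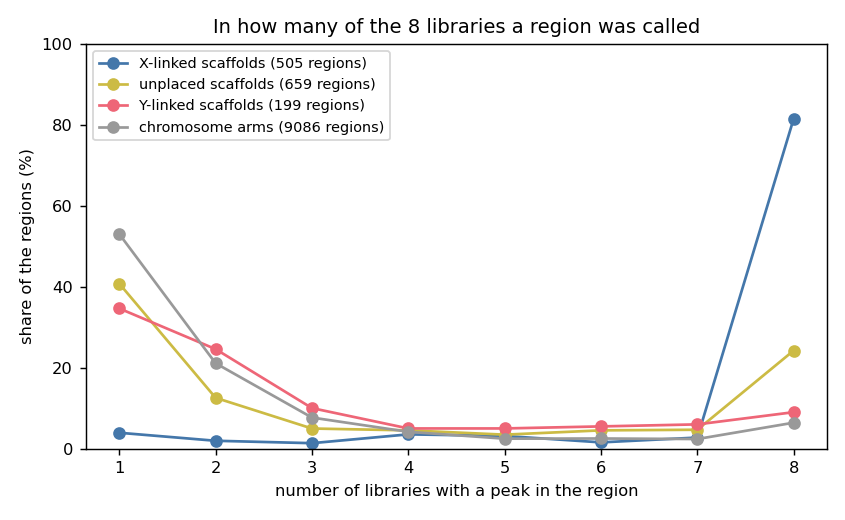
Share of the merged regions of each class (y axis, %) by the number of libraries with a peak in the region (x axis). X-linked scaffold regions pile up at 8 libraries (81.6%), whereas arm and Y-linked regions were mostly called in 1 or 2, and unplaced regions have a high share at both ends.

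At the other end, 362 scaffold regions were called in 1 library only. Of these, 277 belonged to the second wild-type undamaged library, with 215 on unplaced, 44 on Y-linked and 15 on X-linked scaffolds. The first Zelda-GFP undamaged library had 61, and each of the other 6 libraries between 0 and 6. Those 2 libraries also had the longest Y-linked and unplaced parts. The second wild-type undamaged library stood apart from its own replicate, which had 4 such regions and 874 scaffold peaks.

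The first question for these regions was whether the tag or the damage moved the amount of scaffold signal. The Zelda-GFP lists had 875.25 ± 109 scaffold peaks and the wild-type lists 957.5 ± 227 (SD, n = 4 each), a difference of -82.25 that was smaller than the spread (exact two-sided permutation p = 0.571). It was -27.5 within damaged and -137 within undamaged discs, and it changed sign without the second wild-type undamaged library (30.25). The scaffold share of peaks was 22.8% ± 7.23 in Zelda-GFP and 25.5% ± 6.08 in wild-type lists, a difference of -2.76 percentage points (exact permutation p = 0.514), or -4.63 within damaged and -0.89 within undamaged discs. Scaffolds made up 29.9% ± 7.64 of the bases under peaks in Zelda-GFP lists and 36.3% ± 6.86 in wild-type lists (exact permutation p = 0.257). A peak lay on 690.5 ± 68.0 scaffolds in Zelda-GFP lists and on 748.5 ± 150 in wild-type lists (exact permutation p = 0.629). None of these 4 differences between genotypes passed the test.

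Damaged discs had fewer scaffold peaks in every library than any undamaged one. They had 816.75 ± 25.4 peaks and undamaged discs 1016 ± 202 (SD, n = 4 each), with an exact two-sided permutation p of 0.0286, the smallest that 4 against 4 libraries allow, and 0.114 after adjustment over the 8 tests. The difference of -199.25 peaks did not pass after adjustment, and it shrank to -106.25 without the second wild-type undamaged library. It was -144.5 within Zelda-GFP and -254 within wild-type discs, where 2 against 2 libraries cannot go below an exact permutation p of 0.333. The scaffold share was 19.5% ± 4.45 in damaged and 28.8% ± 4.13 in undamaged discs, with an exact permutation p of 0.0571 (adjusted 0.114), and the difference was -11.2 percentage points within Zelda-GFP and -7.41 within wild-type discs. A share also moves with the arm peaks. These numbered 3624 and 3908 in Zelda-GFP damaged and 2908 and 1698 in Zelda-GFP undamaged lists. Wild-type damaged lists had 2282 and 3706, and wild-type undamaged lists 1744 and 3355. Of the bases under peaks, 27.7% ± 4.39 lay on scaffolds in damaged and 38.5% ± 5.96 in undamaged discs (exact permutation p = 0.0571). A peak lay on 654.25 ± 27.2 scaffolds in damaged and 784.75 ± 132 in undamaged discs (exact permutation p = 0.0571). Unplaced peaks numbered 250 to 285 in the damaged lists and 318 to 580 in the undamaged lists. X-linked peaks were closer, with 464 to 487 in the damaged and 477 to 525 in the undamaged lists, and Y-linked peaks overlapped, with 46 to 75 in the damaged and 25 to 167 in the undamaged lists.

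Regions that followed the tag in a call-or-no-call sense were rare on scaffolds. A peak in each of the 4 Zelda-GFP lists and in none from wild-type discs was seen at 2 regions, beside 0.607% of all regions by the same rule. One was Un_DS485802v1 positions 113 to 719, at 3.16 and 2.34 times background in Zelda-GFP damaged and 2.20 and 2.72 times in Zelda-GFP undamaged discs. The other was Y_CP007107v1_random positions 63069 to 63600, at 1.81 to 2.15 times. Both were thus weak peaks. The opposite rule, every wild-type list but none with the tag, was met by 13 regions, beside 0.552% of all regions. Of the 13, 12 were X-linked, or 2.38% of the X-linked regions.

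Within damaged discs, 15 scaffold regions had a peak in the pair of Zelda-GFP lists and in none of the wild-type pair, beside 11.4% of all regions. The reverse held for 41, beside 3.03%. Within undamaged discs, 19 scaffold regions were in the Zelda-GFP pair alone, beside 2.79% of all regions, and 45 in the wild-type pair alone, beside 2.07%. The large set of regions that both Zelda-GFP damaged libraries alone called, 8.88% of all regions, had 1 member on scaffolds. It was Un_DS485341v1 positions 584 to 1003, at 2.81 and 3.37 times background. Both Zelda-GFP undamaged libraries alone called 4 scaffold regions, beside 0.588% of all regions. These lay on Un_CP007087v1, Un_DS484045v1, Y_CP007111v1_random and Y_DS484631v1_random, at 1.78 to 6.10 times background.

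Regions with peaks in the damaged lists alone were few, and those in the undamaged lists alone were more common on scaffolds in wild-type discs. In Zelda-GFP discs 3 scaffold regions had peaks in the damaged pair alone, beside 11.5% of all regions, and 22 in the undamaged pair alone, beside 1.65%. In wild-type discs 20 were in the damaged pair alone, beside 2.58% of all regions, and 60 (4.34% of the scaffold regions, 49 of them unplaced) in the undamaged pair alone, beside 1.61%. Over both genotypes, 2 scaffold regions had a peak in each of the 4 damaged lists and in no undamaged one (0.257% of all regions), and 6, or 0.434% of the scaffold regions, the reverse (0.156% of all regions). The 6 were all unplaced. The 5 of them with the highest fold percentile were broad, 2091 to 4188 bp, and lay on Un_DS484246v1, Un_DS484116v1, Un_DS483944v1, Un_DS483853v1 and Un_DS484343v1. Their pileup was 1.79 to 3.51 times background in the Zelda-GFP undamaged libraries, 2.42 to 3.19 times in the first wild-type undamaged library, and 4.18 to 9.50 times in the second.

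Signal strength was compared in the regions that all 8 libraries called, since a region without a peak has no value in a list. The log2 of the pileup over background was fitted with limma over all 1226 such regions of the genome, 602 of them on scaffolds, and p-values were adjusted over the 1226. Between genotypes, 38 scaffold regions were lower and 15 higher in Zelda-GFP discs. Over all regions tested the shares were 4.4% lower and 2.77% higher. On the arms 15 were lower and 19 higher of 586. The X-linked scaffolds held 36 of the 38 lower regions, out of 412 tested (8.74%), and the unplaced scaffolds the other 2, out of 160. The 15 higher regions were 8 X-linked and 7 unplaced. None of the 18 Y-linked regions passed the test, and 1 had an unadjusted p under 0.05.

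**Figure D3:**
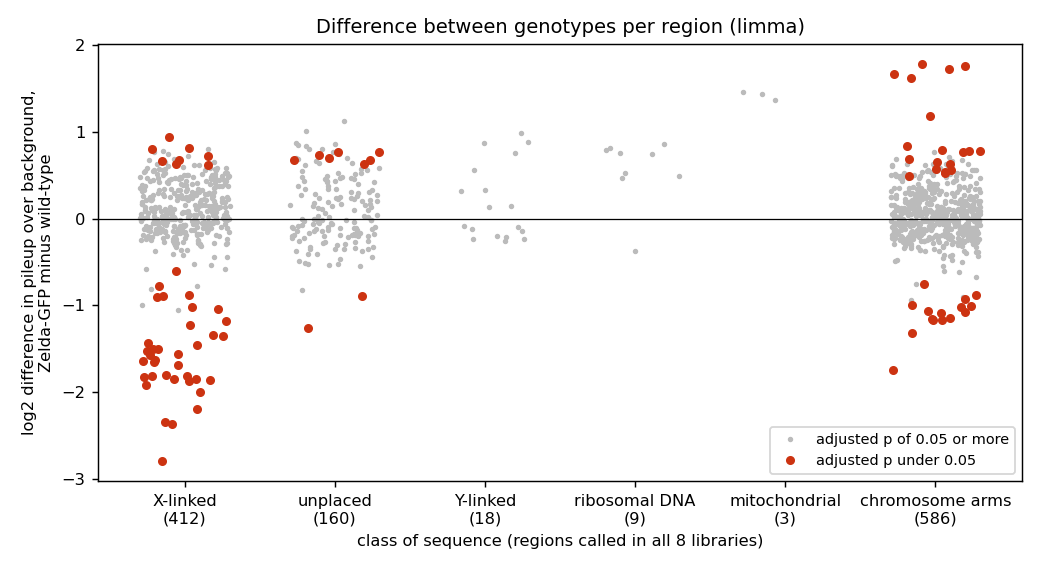
Difference in log2 pileup over background between Zelda-GFP and wild-type discs (y axis) for each region called in all 8 libraries, by class of sequence (x axis, number of regions in brackets). Points in red passed an adjusted p of 0.05 (limma). The red points below -1 are mostly X-linked scaffold regions, while red points above 0 are fewer and smaller on scaffolds.

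The 38 lower regions were the larger effect. Their log2 differences ran from -2.80 to -0.60 with a median of -1.56, and 32 were past 1 log2 unit. The median level was 4.13 times background in Zelda-GFP and 13.1 times in wild-type discs. In 33 of the 38, all 4 Zelda-GFP libraries lay below all 4 wild-type libraries. Such separation was seen in 36 of the 602 scaffold regions (5.98%), beside 6.53% of all regions. The opposite separation was seen in 54 scaffold regions, 8.97%, and in 8.97% of all regions. All 38 lay on different scaffolds, which may share reads, and had the same sign in damaged and in undamaged discs. They were called on the mean over both conditions, so the shared sign is no separate support. By limma within undamaged discs alone, 37 of the 602 scaffold regions were lower in Zelda-GFP, beside 4% of all 1226 regions. Within damaged discs alone 2 were lower, beside 0.326%. In each condition 1 scaffold region was higher, beside 0.897% of all regions in undamaged and 0.245% in damaged discs. These counts are not limited to the 38.

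The 4 regions below, picked after their values were seen for the smallest adjusted p, show what such a region looked like. X_DS484457v1_random positions 67 to 2041 reached 2.32 and 2.31 times background in Zelda-GFP damaged and 1.91 and 3.26 times in Zelda-GFP undamaged discs, against 11.9 and 8.49 times in wild-type damaged and 16.2 and 13.4 times in wild-type undamaged discs. The groups did not overlap: the highest Zelda-GFP library was well below the lowest wild-type library. The log2 difference was -2.34 ± 0.21 (SE, n = 4 against 4, limma adjusted p = 0.00198). X_DS485649v1_random positions 26 to 1059 had 3.08 and 2.87 times in Zelda-GFP damaged and 2.57 and 4.64 times in Zelda-GFP undamaged discs, against 17.4 and 13.5 times in wild-type damaged and 23.0 and 13.7 times in wild-type undamaged discs. Its log2 difference was -2.36 ± 0.24 (SE, limma adjusted p = 0.00229), again with no overlap. X_DS484161v1_random positions 162 to 2695 had 2.74 to 4.50 times in the 4 Zelda-GFP libraries and 8.38 to 15.2 times in the 4 wild-type libraries. X_DS484260v1_random positions 132 to 2223 had 2.41 to 4.13 times in the Zelda-GFP libraries and 9.74 to 18.4 times in the wild-type libraries. In all 4 regions the second Zelda-GFP undamaged library was the highest of its genotype and the first wild-type undamaged library the highest of all 8.

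The 12 X-linked regions and the single unplaced region were found in every wild-type list and no Zelda-GFP list. This kept them apart from the 38 lower regions by rule, since those were drawn only from regions called in every library. They lay on 13 scaffolds, none of which had any Zelda-GFP peak and none of which could therefore hold a lower region. Whether both sets reflect the same difference was not tested. The pileup of the 13 regions was 1.74 to 14.98 times background, with a median of 6.93, and their spans 677 to 2097 bp. The 5 with the highest fold percentile lay on X_DS484733v1_random, X_DS485813v1_random, X_DS484387v1_random, X_DS484832v1_random and X_DS485934v1_random. X_DS484733v1_random positions 40 to 1542 stood at 9.43 and 7.40 times background in wild-type damaged and 14.98 and 10.5 times in wild-type undamaged discs. The other 4 of these 5 had 4.67 to 7.46 times in wild-type damaged and 9.44 to 11.1 times in wild-type undamaged discs. A missing peak gives no value, so the Zelda-GFP level there is known only to have stayed below the caller's threshold.

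The 15 higher regions differed less, by 0.61 to 0.94 log2 units, with median levels of 14.2 times background in Zelda-GFP and 10.2 times in wild-type discs. X_DS485959v1_random positions 37 to 988 had 13.7 and 13.1 times in Zelda-GFP damaged and 11.7 and 13.4 times in Zelda-GFP undamaged discs, against 5.91 and 6.21 times in wild-type damaged and 7.38 and 7.72 times in wild-type undamaged discs. No library of one genotype reached the other, and the log2 difference was 0.94 ± 0.13 (SE, limma adjusted p = 0.0045). Un_DS485031v1 positions 53 to 1267 had 40.2 and 30.2 times in Zelda-GFP damaged and 27.7 and 33.7 times in Zelda-GFP undamaged discs, against 17.5 and 18.0 times in wild-type damaged and 22.9 and 18.6 times in wild-type undamaged discs (log2 difference 0.77 ± 0.16 SE, limma adjusted p = 0.0293). Both were picked after their values were seen.

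How many regions passed depended on single libraries, more so for the higher than for the lower ones. Without the first wild-type damaged library 20 regions were lower, and without the first Zelda-GFP damaged library 22. The higher count was 111 without the first wild-type undamaged library, 2 without the first wild-type damaged or the second Zelda-GFP undamaged library, and 1 without the first Zelda-GFP damaged or the second wild-type damaged library. All 53 regions kept their sign in every such fit. They were chosen for their difference in these same libraries, so the unchanged sign is no separate support. With values centred on the median arm region of each library all 53 passed again. Counting every scaffold region that then passed, 39 were lower and 34 higher, against 38 and 15 without centring. Where a fit left 1 library in a group, that library was assumed to vary like the others.

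X-linked scaffold lists also differed slightly in which regions they held. The Jaccard index between 2 libraries was 0.917 to 0.972 with a median of 0.941 over the 12 pairs of the same genotype, and 0.866 to 0.940 with a median of 0.902 over the 16 pairs of different genotype. On unplaced scaffolds the same ranges were 0.327 to 0.782 and 0.352 to 0.744. Pairs share libraries, so these are given as a description.

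Of the scaffold classes, unplaced scaffolds had the highest single pileup in 7 of the 8 libraries, and the ribosomal DNA did in the first Zelda-GFP damaged library. Un_CP007081v1 positions 87875 to 88765 reached 235 and 328 times background in Zelda-GFP damaged, 175 and 180 times in wild-type damaged, 219 and 326 times in Zelda-GFP undamaged, and 455 and 75.7 times in wild-type undamaged discs. Un_DS484484v1 positions 1395 to 2018 followed it closely, with 230 and 315 times in Zelda-GFP damaged, 169 and 177 times in wild-type damaged, 197 and 326 times in Zelda-GFP undamaged, and 431 and 65.6 times in wild-type undamaged discs. In both regions the 2 wild-type undamaged libraries were the highest and the lowest of the 8, so the spread between replicates was larger than any step between groups. Whether both regions draw on the same reads was not tested.

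By fold, the authors' own measure, the regions that ranked highest within their lists among those called in all 8 were Un_DS485995v1, Un_DS485906v1, Un_DS484007v1, Y_DS483690v1_random and Un_DS483755v1. All 5 began within the first 100 bases of their scaffold. Un_DS485995v1 positions 2 to 408 had 123 and 136 times background in Zelda-GFP damaged, 92.5 and 90.7 times in wild-type damaged, 81.0 and 164 times in Zelda-GFP undamaged, and 168 and 151 times in wild-type undamaged discs. The groups overlapped. The scaffolds with the most regions were Un_CP007120v1 and X_CP007103v1_random with 15 each, followed by Un_CP007077v1, Un_CP007105v1, Y_CP007111v1_random and Y_CP007114v1_random with 13 each, Un_CP007080v1 with 10, Un_CP007079v1 and Un_CP007086v1 with 9 each and Un_CP007074v1 with 8. Of these, X_CP007103v1_random had 10 regions called in all 8 libraries and Un_CP007086v1 had 5, while Un_CP007077v1, Un_CP007105v1, Y_CP007114v1_random, Un_CP007079v1 and Un_CP007074v1 had none. On most sequences there was little to compare, since 882 of the 1033 held 1 region.

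Damage changed few of the regions called everywhere. By limma, 3 scaffold regions were higher and 1 lower in damaged discs, beside 0.245% higher and 0.0816% lower of all 1226 regions, which are the same 4 regions: no arm region passed. The region Un_DS484191v1 positions 43 to 2124 had 5.21 and 5.57 times background in Zelda-GFP damaged and 7.06 and 8.18 times in wild-type damaged discs, against 2.59 and 2.77 times in Zelda-GFP undamaged and 3.22 and 4.41 times in wild-type undamaged discs (log2 difference 1.01 ± 0.15 SE, limma adjusted p = 0.0486). In Un_DS485102v1 positions 1 to 1155, damaged discs had 3.97 and 4.50 times with Zelda-GFP and 9.07 and 9.38 times in wild-type, against 3.57 and 3.03 times with Zelda-GFP and 2.88 and 3.44 times in wild-type undamaged discs (log2 difference 0.96 ± 0.14 SE, limma adjusted p = 0.0486). Un_DS485957v1 positions 11 to 971 was the lower one, at 5.998 and 7.31 times with Zelda-GFP and 4.21 and 3.62 times in wild-type damaged discs, against 6.68 and 7.16 times with Zelda-GFP and 18.0 and 17.9 times in wild-type undamaged discs (log2 difference -1.13 ± 0.14 SE, limma adjusted p = 0.0299). In both of these regions the wild-type libraries were far apart between conditions and the 4 Zelda-GFP libraries close together. The difference of the damage effect between genotypes was -1.19 ± 0.28 log2 units in Un_DS485102v1 (SE, limma adjusted p = 0.378) and 2.14 ± 0.27 in Un_DS485957v1 (SE, limma adjusted p = 0.0646), and neither passed. No region of the 1226 did (0%), while 43 of the 602 scaffold regions had an unadjusted p under 0.05, beside 71 of all 1226. Damage calls on scaffolds fell to 0 higher and 0 lower when any damaged or any Zelda-GFP undamaged library was left out. They numbered 8 higher and 12 lower without the first wild-type undamaged library, and 4 higher and 2 lower without the second.

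The fourth region, Y_CP007111v1_random positions 11310 to 12439, showed the largest damage difference of the 602 scaffold regions. It had 8.13 and 10.3 times background in Zelda-GFP damaged and 9.13 and 11.2 times in wild-type damaged discs, against 2.88 and 2.77 times in Zelda-GFP undamaged and 2.67 and 4.65 times in wild-type undamaged discs. The log2 difference was 1.61 ± 0.20 (SE, n = 4 against 4, limma adjusted p = 0.0299), and the groups did not overlap. This scaffold also held both regions that every damaged list and no undamaged list contained. Positions 113 to 1064 stood at 3.95 and 4.26 times in Zelda-GFP damaged and 3.27 and 4.51 times in wild-type damaged discs. Positions 3031 to 4051 stood at 4.52 and 4.02 times in Zelda-GFP damaged and 3.96 and 4.51 times in wild-type damaged discs.

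The other 10 regions of Y_CP007111v1_random were mixed. Positions 4533 to 5333 and 6626 to 7394 were each called in 3 damaged and no undamaged library. Positions 26101 to 28202 had 6.39 and 7.57 times in Zelda-GFP damaged and 7.35 and 7.47 times in wild-type damaged discs, against 2.93 and 2.26 times in Zelda-GFP undamaged and 2.36 and 5.15 times in wild-type undamaged discs, a difference that did not pass (log2 difference 1.26 ± 0.25 SE, limma adjusted p = 0.163). Positions 20031 to 21671, by contrast, had 8.17 to 11.1 times in damaged and 8.12 to 12.5 times in undamaged discs. Positions 8451 to 8955, 13479 to 15016 and 19256 to 19634 were called in more undamaged than damaged libraries. The scaffold was singled out after its values were seen, and its regions may share reads.

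Y-linked scaffolds as a class moved with the library. Their peaks numbered 65 and 46 in Zelda-GFP damaged, 75 and 53 in wild-type damaged, 150 and 52 in Zelda-GFP undamaged, and 25 and 167 in wild-type undamaged lists. The Y chromosome itself had 126 and 88 peaks in Zelda-GFP damaged, 131 and 98 in wild-type damaged, 304 and 104 in Zelda-GFP undamaged, and 89 and 296 in wild-type undamaged lists. Both were highest in the same 2 undamaged libraries, each of which was far above its replicate. The labels do not give the sex of the larvae, and its part in these counts was not tested. The Y-linked region with the highest mean fold percentile among those called in all 8, Y_DS483690v1_random positions 26 to 918, had 50.8 and 67.0 times background in those 2 libraries and 19.8 to 40.1 times in the other 6.

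On the ribosomal DNA scaffold, every library had peaks of high pileup, and they covered part of each annotated transcription unit: 46.4% to 79.5% of pre-rRNA:CR45845, 66.4% to 86.2% of pre-rRNA:CR45846 and 52.2% to 61.6% of pre-rRNA:CR45847, depending on the library. The 9 regions called in all 8 libraries included 6 that exceeded 50 times background everywhere. Positions 37399 to 42436 reached 310 and 146 times in Zelda-GFP damaged, 92.5 and 105 times in wild-type damaged, 126 and 160 times in Zelda-GFP undamaged, and 125 and 83.3 times in wild-type undamaged discs. Positions 62954 to 67824 had 136 to 279 times in the Zelda-GFP damaged, 92.0 to 103 times in the wild-type damaged, 114 to 154 times in the Zelda-GFP undamaged and 80.7 to 110 times in the wild-type undamaged libraries. Positions 53641 to 58496 had 103 to 255 times in the 4 Zelda-GFP and 73.5 to 104 times in the 4 wild-type libraries. The first Zelda-GFP damaged library was the highest of the 8 in these 6 regions.

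The array around the summits was covered as well: the local expected coverage reached 27.7 to 109 times background, depending on the library, and folds on the scaffold ran from 1.14 to 8.20. By fold percentile the leading region called in all libraries was positions 17987 to 19607, at 39.9 and 29.1 times background in Zelda-GFP damaged, 19.95 and 20.99 times in wild-type damaged, 27.4 and 30.9 times in Zelda-GFP undamaged, and 24.997 and 22.1 times in wild-type undamaged discs. It lies in 28SrRNA-Psi:CR40596, a 28S ribosomal RNA pseudogene at positions 16936 to 22940. Positions 73445 to 76854, at the end of the array, had 202 and 87.8 times in Zelda-GFP damaged and 77.6 and 83.5 times in wild-type damaged discs, and 94.0 and 97.7 times in Zelda-GFP undamaged and 75.8 and 90.7 times in wild-type undamaged discs. Positions 17064 to 17745 had 8.66 to 13.2 times in the 4 Zelda-GFP and 6.10 to 10.8 times in the 4 wild-type libraries. Positions 4601 to 5276, in the pseudogene 28SrRNA-Psi:CR45848, carried a peak of 8.54 times background in the second wild-type undamaged library alone.

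**Figure D4:**
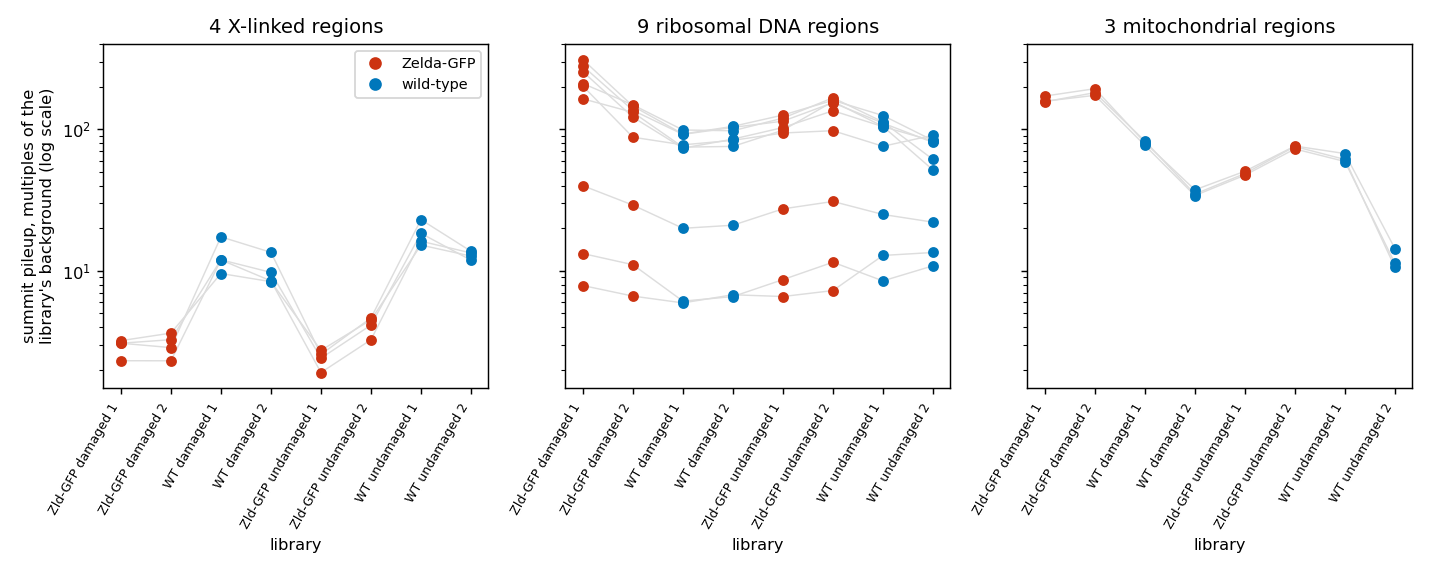
Summit pileup in multiples of the library's background (y axis, log scale) in each library (x axis; Zld-GFP is Zelda-GFP, WT is wild-type) for the 4 X-linked regions with the smallest adjusted p for a lower level in Zelda-GFP, the 9 ribosomal DNA regions and the 3 mitochondrial regions called in all 8. Grey lines join the values of 1 region. The X-linked regions are low in all red (Zelda-GFP) points, whereas the mitochondrial regions are highest in the 2 Zelda-GFP damaged libraries and lowest in the second wild-type undamaged library.

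Between genotypes the 9 ribosomal DNA regions had log2 differences of -0.37 to 0.86. Of the 9, 8 were higher in Zelda-GFP discs, beside 684 of all 1226 regions. None passed (limma adjusted p = 0.081 to 0.298), while 8 had an unadjusted p under 0.05, beside 292 of all 1226 regions. These 8 included the single lower region, positions 20158 to 21751, and left out positions 73445 to 76854. Within undamaged discs alone that lower region passed (log2 difference -0.93 ± 0.19 SE, limma adjusted p = 0.0354), as did 4% of all 1226 regions in that direction. Peaks covered the gene copies of the array unevenly. RefSeq's genes for Release 6 of the genome include 21 on the X and Y ribosomal DNA sequence, ending at position 74924. The table does not name the scaffold, and 5 scaffolds have a peak beyond that position, so placing these genes on Un_CP007120v1 rests on what is known of the assembly. Of the 21 genes, 9 were touched by a peak in all 8 libraries and 5 in none. The 18S copy 18SrRNA:CR45838 was covered over 96.3% to 100% of its length, depending on the library. The copy 18SrRNA:CR41548 was covered over 8.67% to 67.2%, and 18SrRNA:CR45841 over 0% to 44.6%. The 28S copies 28SrRNA:CR45837 and 28SrRNA:CR45844 were covered over 82.2% to 85.2% and 79.4% to 93.5%. Reads from such copies cannot be told apart with certainty, so coverage of single copies is uncertain.

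The mitochondrial genome had 3 regions, each called in all 8 libraries. Positions 95 to 5820 reached 172 and 193 times background in Zelda-GFP damaged, 80.6 and 37.3 times in wild-type damaged, 50.5 and 76.1 times in Zelda-GFP undamaged, and 67.3 and 14.3 times in wild-type undamaged discs. Positions 6875 to 9015 had 158 and 174 times in Zelda-GFP damaged, 76.9 and 34.0 times in wild-type damaged, 47.4 and 72.6 times in Zelda-GFP undamaged, and 59.2 and 11.3 times in wild-type undamaged discs. Positions 10478 to 14866 had 156 and 181 times in Zelda-GFP damaged, 82.6 and 34.8 times in wild-type damaged, 48.6 and 75.5 times in Zelda-GFP undamaged, and 61.1 and 10.6 times in wild-type undamaged discs. The 3 regions moved together, and both Zelda-GFP damaged libraries stood above the other 6. They did not pass for genotype, with log2 differences of 1.36 to 1.45 (limma adjusted p = 0.127 to 0.141), or for damage, with 1.19 to 1.28 (limma adjusted p = 0.431).

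The folds here were only 1.08 to 2.17, as the local expected coverage at these peaks was itself 3.61 to 134 times background. Mitochondrial peaks thus stood little above their surroundings. Peaks covered the whole of COX1, which encodes a subunit of cytochrome c oxidase, in all 8 libraries, and 83.9% to 100% of CYTB, which encodes cytochrome b. ND1, which encodes a subunit of complex I, was covered over 85.4% to 100%. No peak touched ND4L, another complex I gene, in any library. Of the 37 mitochondrial genes in the table, 11 were touched by a peak in all 8 libraries and 10 in none.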

How the data were processed

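The 8 libraries, 4 groups of 2, were made by anti-GFP CUT&RUN. Per the submitters' processing notes, bcl2fastq 2.20, Bowtie2, SAMtools, Picard, deepTools and MACS2 were used with build dm6, without their roles or settings. Each library was called separately and deposited as a narrowPeak list. The deposited fold enrichment is a linear ratio of summit pileup to local expected coverage with 1 added to both, the authors' p- and q-values are −log10, and the deposited score is 10 times the −log10 q-value.

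Pileup and expected coverage were recovered from fold and p-value under a Poisson tail, and 99.9% to 100% of pileups came out whole within 0.05. The lists give neither read totals nor reads at places without a peak. Peaks overlapping by 1 bp were merged. Tests were exact permutations over libraries, with Benjamini-Hochberg adjustment over 8. A limma 3.58.1 fit (R 4.3.3) of log2 pileup over background, with 1 mean per group, covered 1226 regions called in all libraries. It was added after the lists were seen and checked on simulated data. Regions named are the 5 with the highest fold percentile or pileup in each class, the 10 scaffolds with the most regions, and those said to be picked afterwards. The members, classes and rules were chosen with earlier results of these data known. Alternatives were stricter cutoffs, other merging rules, equal list lengths, a replicate block, other limma settings and leaving out each library. Python 3.11.15 with scipy 1.17.1 was used.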

Additional observations from a re-analysis of the deposited data

Results flagged for a closer look

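In the second wild-type undamaged library the number of scaffold peaks, 1295, stood far from the 807 to 874 of the other 3 wild-type libraries. The number of scaffolds with a peak, 971, did so too, against 642 to 692. Among the 4 Zelda-GFP libraries, the second undamaged one had 3 mitochondrial peaks where each of the others had 5. On the ribosomal DNA scaffold Un_CP007120v1, the region at positions 73445 to 76854 reached 201.8 times background in the first Zelda-GFP damaged library, against 87.8 to 97.7 times in the other 3 Zelda-GFP libraries. These 4 values were marked among 56 sets of 4 libraries, of which chance marks about 1 in 20.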

How the results depend on the processing

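Of the 4 genotype differences in amount, none passed under any alternative, but that in share moved to -14.0 percentage points at a fold of at least 3 (exact permutation p = 0.0571) and to -6.03 at a −log10 q of at least 5, and that in bases to -11.4 at that fold. Those of damage moved with the setting: the share became -6.74 percentage points with lists of equal length (exact permutation p = 0.0286), scaffolds with a peak -89.25 at a fold of at least 3 (exact permutation p = 0.0286), and the number of peaks -162.75 at a −log10 q of at least 5 (exact permutation p = 0.0857). Replicate numbers did not pair the libraries (correlations of deviations between groups -0.50 to 0.33). With a replicate block the damage difference in peak number was -199.25 (exact permutation p = 0.0556), and limma gave 3 regions higher in Zelda-GFP, 29 lower, and 0 higher and 0 lower with damage. Summit windows of 100 bp changed the call classes most: 275 regions in all 8 libraries, 18 in the 4 Zelda-GFP lists alone, 67 for Zelda-GFP against wild-type in damaged and 91 in undamaged discs, and 34 and 56 for damaged against undamaged in Zelda-GFP and wild-type discs. The class of the 4 Zelda-GFP lists alone gave 4 at a −log10 q of at least 5 and 1 with whole scaffolds. Zelda-GFP against wild-type gave 31 at a fold of at least 3 and 9 with equal lists in damaged discs, and 8 at that fold and 9 with whole scaffolds in undamaged discs. Damaged against undamaged gave 1 with whole scaffolds in Zelda-GFP discs, and 6 at that fold and 7 with whole scaffolds in wild-type discs. In limma, regions higher in Zelda-GFP numbered 34 with arm-median centring and 8 with a trended variance, and a larger damage effect in Zelda-GFP was called for 1 with centring and for 1 with folds. The cause of these changes was not tested.

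Leaving out each library in turn moved the genotype difference in share between -5.95 (without the second Zelda-GFP undamaged library) and -0.51 (without the first wild-type undamaged library) percentage points, in bases between -10.1 and -4.53, in peaks between -135.2 and 30.25, and in scaffolds with a peak between -93.5 and 16.2, both positive only without the second wild-type undamaged library. For damage the ranges were -11.5 (without the first wild-type damaged library, exact permutation p = 0.0286) to -8.10 percentage points, -250.9 to -106.25 peaks and -162.4 to -68.4 scaffolds. The difference in peaks missed the threshold without any 1 damaged library (exact permutation p = 0.0857 to 0.171), and that in scaffolds passed it without the first wild-type undamaged library (exact permutation p = 0.0286, all unadjusted). Call classes ranged from 2 to 6 (the 4 Zelda-GFP lists alone), 13 to 21 (the 4 wild-type lists alone), 20 to 43 and 30 to 85 (Zelda-GFP against wild-type, damaged and undamaged), and 4 to 15 and 27 to 52 (damaged against undamaged, Zelda-GFP and wild-type). Limma counts ranged from 1 to 111 higher and 20 to 53 lower in Zelda-GFP, 0 to 8 higher and 0 to 12 lower with damage, and 0 to 6 with a larger damage effect in Zelda-GFP.

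Depth is known only through the background coverage. A place without a peak has no value, the handling of reads that match several scaffolds is not given in the sources used here, and with 2 libraries per group no exact test within a condition can pass.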

Other observations

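Damage differences leaned to the lower side in most classes of sequence. The ribosomal DNA (7 of 9 regions higher) and the mitochondrial genome (3 of 3 higher) went the other way. Of all 1226 regions called in all 8 libraries, 937 were lower in damaged discs, with a median log2 difference of -0.14, and 137 had an unadjusted p under 0.05. Of the 412 X-linked scaffold regions among them 366 were lower, with a median of -0.26, and 0 passed by limma (55 had an unadjusted p under 0.05). This lean was not alike in both genotypes. In 370 of the 412 the damage difference was more negative in wild-type than in Zelda-GFP discs, by a median of 0.41 log2 units. For this contrast too, 0 passed. Of 160 unplaced regions 123 were lower (median -0.21), and of 586 arm regions 399 (median -0.09). The median X-linked peak stood at 6.67 and 7.03 times background in Zelda-GFP damaged and 7.33 and 6.45 times in wild-type damaged lists, and at 5.67 and 8.29 times in Zelda-GFP undamaged and 9.99 and 7.85 times in wild-type undamaged lists. The groups overlap, and the first wild-type undamaged library is the highest.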
